A study of Rattus norvegicus with 24 samples.

Results

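Arg1, Nos2 and Hmox1 are genes by which the state of macrophages is often described, and they were followed here across sham-operated, infarcted and patch-treated rat hearts. They were chosen by Ensembl gene ID: ENSRNOG00000013304 for Arg1, ENSRNOG00000011023 for Nos2 and ENSRNOG00000014117 for Hmox1. Of the 3 IDs, 2 are among the 32883 rows of the count table used here, those of Arg1 and Hmox1, and both passed the filter on low counts. Nos2 was not analysed here. The symbols came with the choice of the IDs. No table used here pairs Ensembl IDs with symbols, so the pairing was not checked.

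Macrophages clear dead muscle from an infarct and then take part in building the scar. Arg1 encodes arginase 1, which splits arginine into ornithine and urea, and ornithine feeds the synthesis of polyamines and proline. Nos2 encodes the inducible nitric oxide synthase, which uses the same arginine to make nitric oxide, so that the pair of enzymes compete for a substrate. Hmox1 encodes heme oxygenase 1, which breaks heme down to biliverdin, iron and carbon monoxide and is induced by heme and by oxidative stress in macrophages and in many other cells.

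Total RNA of Sprague Dawley rat left ventricle was sequenced in 24 libraries, 6 in each of 4 groups. Sham hearts were the operated controls. MI hearts had a myocardial infarction and no patch. The Sutured patch and Microneedle patch groups had an infarct covered by a patch that was held by stitches or by its own microneedles. Per the labels, tissue of the infarct region was taken 7 days after infarction and implantation. The labels give no age, no sex, no composition of the patches and no account of which part of the Sham ventricle was sampled. Nor do they say whether the libraries of a group are from different animals, so the tests speak only to the spread among libraries, which may be technical.

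Total counts ranged from 12574300 to 14552623 in the infarct groups and from 5443782 to 11757562 in Sham, so each Sham library was shallower than any other. Sham replicates 4 and 5 had the fewest genes detected, 14079 and 13635, against 16223 to 17404 in the other 22 libraries. The defining markers of heart muscle, macrophages and other cells could not be looked up without symbols, and the cell type that the Arg1 and Hmox1 reads came from was not tested. In bulk tissue, more cells of a type and more RNA per cell cannot be told apart.

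Hmox1 rose in 2 steps, from Sham to MI and again from MI to either patch. Its level in CPM, the count relative to a TMM-scaled library total, was 7.06 at the lowest, 19.1 at the median and 26.1 at the highest in Sham. In MI these levels were 78.5, 156 and 224 CPM. With the sutured patch they were 496, 674 and 1242 CPM. With the microneedle patch they were 806, 982 and 1278 CPM. No MI library overlapped with Sham and no patch library overlapped with MI, whereas the patch groups overlapped with each other. The share of all genes whose groups separate in this way was not computed, here or in the comparisons below. Sham libraries averaged 19.1 ± 6.98 CPM and MI libraries 158 ± 58.6 CPM (SD, n = 6 each). The sutured group reached 737 ± 277 CPM and the microneedle group 998 ± 157 CPM. As a share of all counts, Hmox1 went from 0.00186% ± 0.000676 in Sham to 0.0158% ± 0.00592 in MI. It held 0.0761% ± 0.0269 in the sutured group and 0.0984% ± 0.0191 in the microneedle group (SD, n = 6 each).

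Arg1 was higher with the microneedle patch than in Sham or MI, and no difference between Sham and MI passed the test. In Sham its lowest, median and highest levels were 2.28, 10.2 and 13.2 CPM. In MI they were 5.17, 10.6 and 14.1 CPM. With the sutured patch they were 7.57, 15.7 and 44.6 CPM, and with the microneedle patch 23.3, 38.0 and 42.4 CPM. Sham and MI libraries overlapped, and the microneedle libraries lay above all 12 of them. The sutured libraries spread over the ranges of both MI and the microneedle patch. Sham libraries averaged 8.69 ± 4.20 CPM and MI libraries 10.1 ± 3.16 CPM (SD, n = 6 each). They were 22.1 ± 15.5 CPM in the sutured group and 35.2 ± 7.37 CPM in the microneedle group. Counts behind these values ran from 23 to 123 in Sham and from 310 to 598 with the microneedle patch, against a floor of 3 counts that corresponds to 0.206 to 0.551 CPM per library and covers counting error only.

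**Figure D1:**
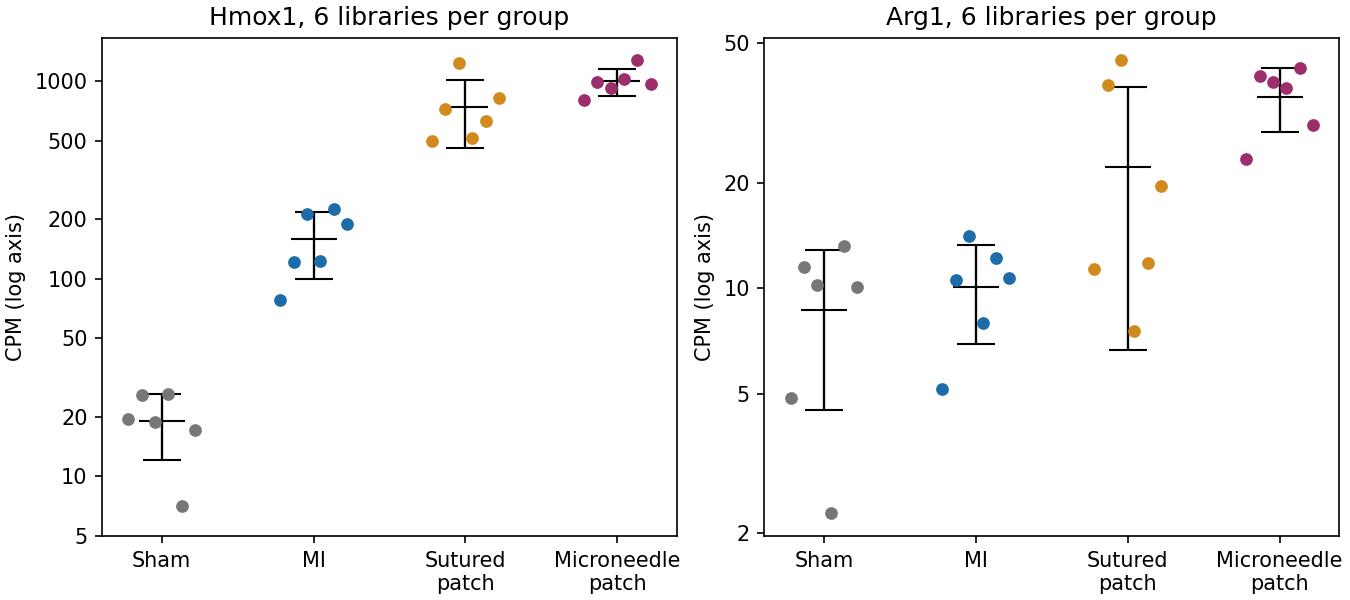
Level of Hmox1 (left) and Arg1 (right) in CPM on a log axis, by group. Points are the 6 libraries of a group in order of replicate number, and the bars show the mean ± SD; Hmox1 separates Sham, MI and the patch groups, whereas Arg1 of the sutured patch runs from 7.57 to 44.6 CPM.

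In MI against Sham, 1 of the 2 genes passed the test (called at an adjusted p under 0.05), in a comparison in which 44.7% of the 14540 genes tested were called and 21.6% were called higher. Hmox1 was 8.25-fold higher in MI (95% interval 5.40 to 12.6; log2 fold change 3.04, SE 0.296, edgeR adjusted p = 1.52e-08), and all 6 MI libraries lay above all 6 Sham libraries. Of the genes tested, 2.80% had a larger log2 fold change than Hmox1. Arg1 had a log2 fold change of 0.23 (SE 0.396, 95% interval -0.59 to 1.05, edgeR adjusted p = 0.667), with 1 MI library above all Sham libraries. The interval allows anything from 0.665-fold to 2.06-fold. Leaving out Sham replicates 4 or 5 moved this Arg1 value to 0.02 and 0.37, as those replicates held the lowest and the highest Sham level of Arg1.

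With the sutured patch against MI, again 1 of the 2 genes passed the test, where 4.55% of all genes were called and 2.87% were called higher. Hmox1 was 4.66-fold higher (95% interval 3.11 to 7.00; log2 fold change 2.22, SE 0.284, edgeR adjusted p = 9.92e-05), in 6 of 6 libraries above all MI libraries. It had the 6th smallest p of the 14540 genes, and 0.873% of genes had a larger log2 fold change. Arg1 had a log2 fold change of 1.13 (SE 0.392, 95% interval 0.321 to 1.94) and missed the threshold after adjustment (edgeR adjusted p = 0.105). Its 6 sutured libraries fell into unequal levels: replicates 2, 3 and 6 stood at 37.9, 44.6 and 19.6 CPM, above each MI library, whereas replicates 1, 4 and 5 stood at 11.4, 7.57 and 11.8 CPM, within the MI range. Without Sham replicates 4 and 5, the libraries with the fewest genes, the log2 fold change of Arg1 stayed at 1.13 and its adjusted p was 0.0431. Those libraries are not part of the comparison, and the cause of the shift was not tested. In the other direction, limma-voom with quality weights gave 0.56 (adjusted p = 0.177), and edgeR without sutured patch replicate 3 gave 0.80 (adjusted p = 0.308).

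With the microneedle patch against MI, both genes rose, in a comparison with 14.5% of all genes called and 7.12% called higher. Hmox1 was 6.32-fold higher (95% interval 4.18 to 9.54; log2 fold change 2.66, SE 0.289, edgeR adjusted p = 1.81e-05) and had the smallest p of all 14540 genes tested. Arg1 was 3.48-fold higher (95% interval 1.97 to 6.14; log2 fold change 1.80, SE 0.397, edgeR adjusted p = 0.00451). For both genes, all 6 microneedle libraries lay above all 6 MI libraries. A larger log2 fold change was seen in 0.385% of genes for Hmox1 and in 1.17% for Arg1. Leaving out any 1 of the 24 libraries kept the Arg1 log2 fold change between 1.66 and 1.94 and its adjusted p at or under 0.0171.

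**Figure D2:**
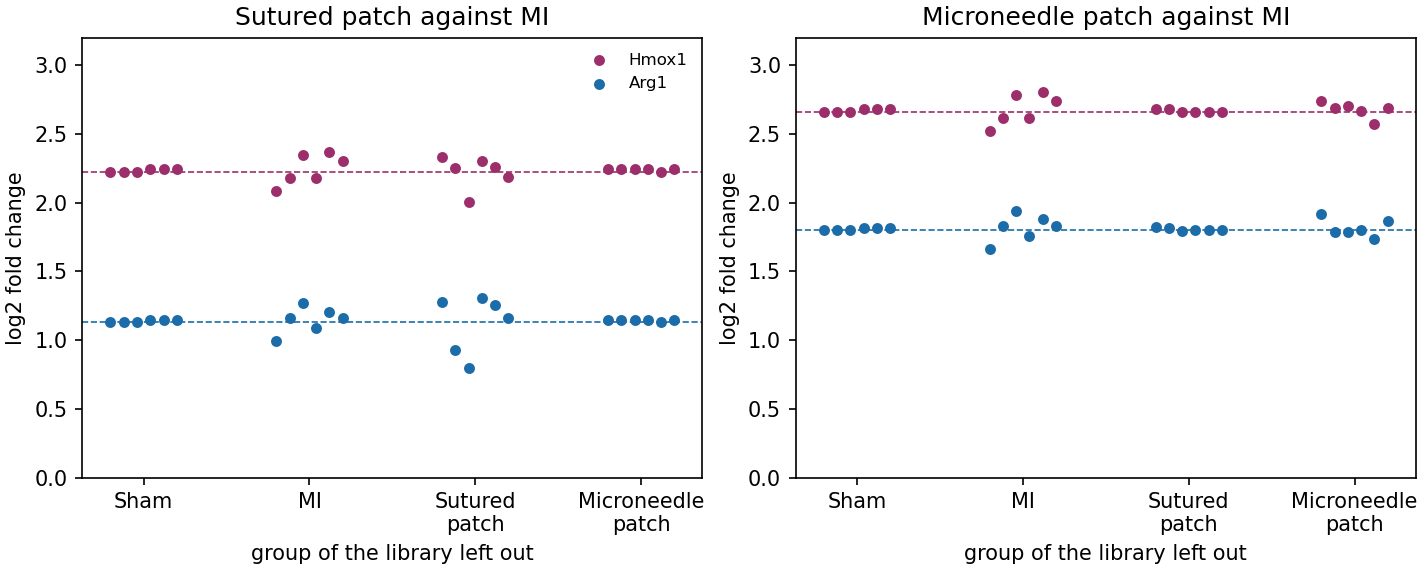
Log2 fold change of Hmox1 and Arg1 for each patch against MI when 1 library is left out, arranged by the group of that library. Dashed lines mark the value with all 24 libraries; Arg1 with the sutured patch moves most, between 0.80 without sutured patch replicate 3 and 1.31 without sutured patch replicate 4.

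Against Sham, both genes were called higher in each patch group. The background there was 48.0% of genes called and 24.1% called higher in the sutured comparison, and 51.5% called and 25.9% called higher for the microneedle patch. Hmox1 was 38.5-fold higher with the sutured patch (log2 fold change 5.26, SE 0.327, edgeR adjusted p = 1.32e-11) and 52.1-fold higher with the microneedle patch (5.70, SE 0.334, edgeR adjusted p = 3.19e-12). Under 1% of genes had larger log2 fold changes, 0.949% and 0.860% respectively. Arg1 was 2.56-fold higher with the sutured patch (log2 fold change 1.36, SE 0.399, edgeR adjusted p = 0.00679), where 3 of 6 libraries lay above all Sham libraries. With limma-voom and quality weights, the Arg1 value for the sutured patch was 0.63 and was not called (adjusted p = 0.218). With the microneedle patch, Arg1 was 4.07-fold higher than in Sham (log2 fold change 2.03, SE 0.404, edgeR adjusted p = 0.000169), in 6 of 6 libraries. These comparisons share the Sham libraries, and each patch's comparison with MI shares the MI libraries.

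Between the patches, neither gene passed the test, where 0.316% of genes were called and 0.144% were called higher with the microneedle patch. Hmox1 had a log2 fold change of 0.44 in favour of the microneedle patch (SE 0.272, 95% interval -0.123 to 0.998, edgeR adjusted p = 0.503), and 1 microneedle library lay above all sutured libraries. Arg1 had a log2 fold change of 0.67 (SE 0.385, 95% interval -0.124 to 1.46, edgeR adjusted p = 0.464), and no microneedle library lay above sutured patch replicate 3. The intervals leave room for a microneedle level from 0.918-fold to 2-fold of the sutured level for Hmox1 and from 0.917-fold to 2.76-fold for Arg1. With limma-voom and quality weights, the Arg1 log2 fold change was 1.21 and was called (adjusted p = 0.0234). Libraries of the sutured group were also more scattered than those of the microneedle group. The coefficient of variation was 69.8% for Arg1 and 37.5% for Hmox1, against 20.9% and 15.7% with the microneedle patch. For Hmox1 it was 36.6% in Sham and 37.1% in MI, near that of the sutured group. For Arg1 it was 48.3% in Sham and 31.2% in MI. Whether the spread differs between the patches was not tested.

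**Figure D3:**
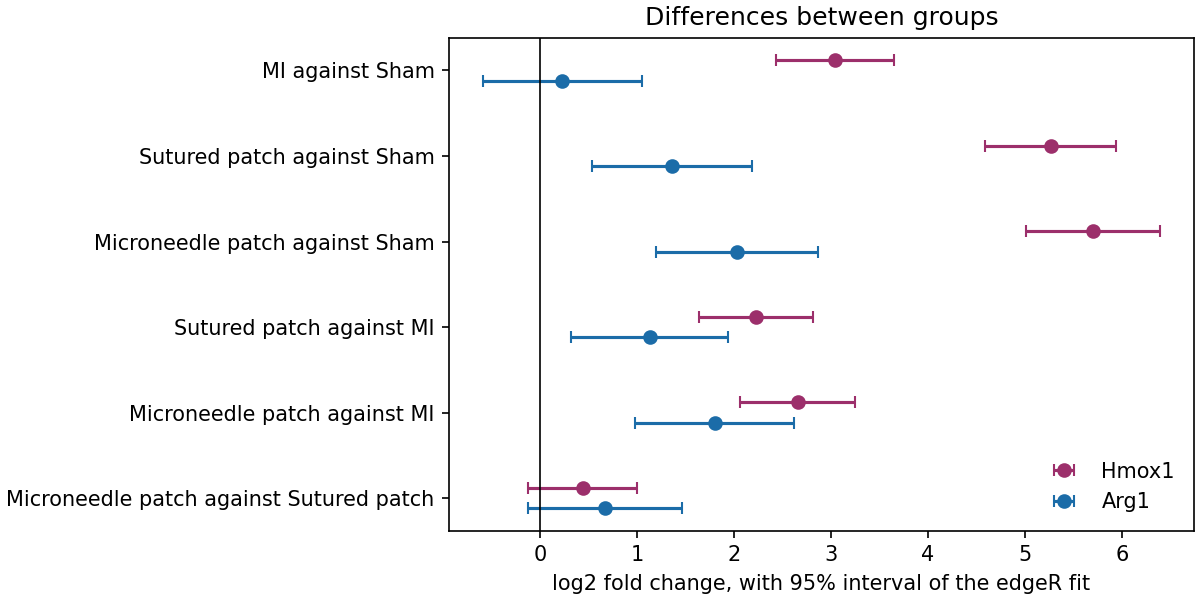
Log2 fold changes of Hmox1 and Arg1 in the 6 comparisons, first-named against second-named group, with 95% intervals from the edgeR fit over 24 libraries. The intervals of Hmox1 exclude 0 except between the patches, and that of Arg1 includes 0 in MI against Sham and between the patches.

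The order of the group levels was the same for both genes by their means, Sham, MI, sutured patch and microneedle patch from low to high. For Hmox1, the first 2 steps in this order passed the test, and the step between the patches did not. For Arg1 no pair of neighbours passed the test. The Arg1 steps that did pass were those between groups further apart, from MI to the microneedle patch and from Sham to either patch.

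The change of Arg1 relative to Hmox1 was followed by the log2 ratio of their counts within a library, which does not depend on library size or scaling. Read counts of the genes are not corrected for transcript length, so the ratio has meaning only as a difference between groups. Sham libraries averaged -1.23 ± 1.45 and MI libraries -3.94 ± 0.243 (SD, n = 6 each). The sutured group stood at -5.28 ± 0.658 and the microneedle group at -4.84 ± 0.222. The ratio was lower in MI than in Sham (difference -2.71 log2 units, exact permutation test over 924 splits, two-sided p = 0.00216, the smallest these splits can give, and adjusted p = 0.0026 over 6 comparisons). These groups only just separated, with the highest MI ratio at -3.51 and the lowest Sham ratio at -3.49. The difference was -3.16 without Sham replicate 4 and -2.28 without Sham replicate 5.

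The ratio was also lower with each patch than in MI, in 6 of 6 libraries below all MI libraries. How often ratios of other gene pairs separate these groups was not computed. The difference in the Arg1 to Hmox1 ratio was -1.34 with sutures and -0.90 with microneedles (exact permutation p = 0.00216, adjusted p = 0.0026 for each). Against Sham the differences were -4.05 and -3.61, with the same exact permutation p and adjusted p. Thus Hmox1 gained more than Arg1 in both patch groups, including the microneedle group, in which both genes were called higher. Between the patches the ratio differed by 0.44 (exact permutation p = 0.152, adjusted p = 0.152), and this difference was 0.65 with an adjusted p of 0.0152 without sutured patch replicate 2 (exact permutation test). Sham ratios ran from -3.49 in replicate 4 to 0.89 in replicate 5, the libraries with the fewest genes detected. The part that depth or detection had in the Sham spread was not tested.

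Within the infarct groups, libraries that were high in one of the genes tended to be high in the other. MI replicate 1 had the lowest level of both genes in its group, and microneedle patch replicates 1 and 5 had the lowest and the highest level of both. Sutured patch replicate 3 was highest in both, while the lowest sutured levels were in replicate 4 for Arg1 and replicate 1 for Hmox1. Relations were computed on log2 CPM (prior count 2). With group differences left in, Pearson's r over the 18 libraries with an infarct was 0.845 (permutation p = 2e-05, 100000 resamples). Spearman's rho was 0.891 (permutation p = 1e-05, the smallest these resamples can give). Because Hmox1 set the MI libraries apart from the patch libraries, relations were also computed within groups.

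In MI, Pearson's r was 0.913 (exact permutation p = 0.00972, adjusted p = 0.0389 over 4 groups) and Spearman's rho 0.886 (exact permutation p = 0.0333, adjusted p = 0.0666), with n = 6. With the sutured patch, r was 0.851 (exact permutation p = 0.0306, adjusted p = 0.0612) and rho was 0.886 (exact permutation p = 0.0333, adjusted p = 0.0666). With the microneedle patch, r was 0.752 (exact permutation p = 0.0889, adjusted p = 0.119) and rho was 0.714 (exact permutation p = 0.136, adjusted p = 0.181). Only Pearson's r in MI therefore passed the adjustment among these 3 groups. In Sham the sign was opposite and the test was not passed, with r = -0.525 (exact permutation p = 0.246, adjusted p = 0.246) and rho = -0.60 (exact permutation p = 0.242, adjusted p = 0.242). Sham replicate 5 was highest in Arg1 and lowest in Hmox1, and Sham replicate 4 was lowest in Arg1 and highest in Hmox1. Whether the relation in Sham differs from that in the infarct groups was not tested.

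Over the 18 libraries with an infarct, after each group's mean had been subtracted, r was 0.797 (permutation within groups, 100000 resamples, p = 0.00011) and rho was 0.843 (p = 7e-05). Without MI replicate 1 and sutured patch replicate 3, the libraries farthest from the median of Hmox1 after this subtraction, r was 0.643 (permutation p = 0.0043) and rho was 0.756 (permutation p = 0.00133). The relation was weaker without these libraries and did not rest on them alone.

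**Figure D4:**
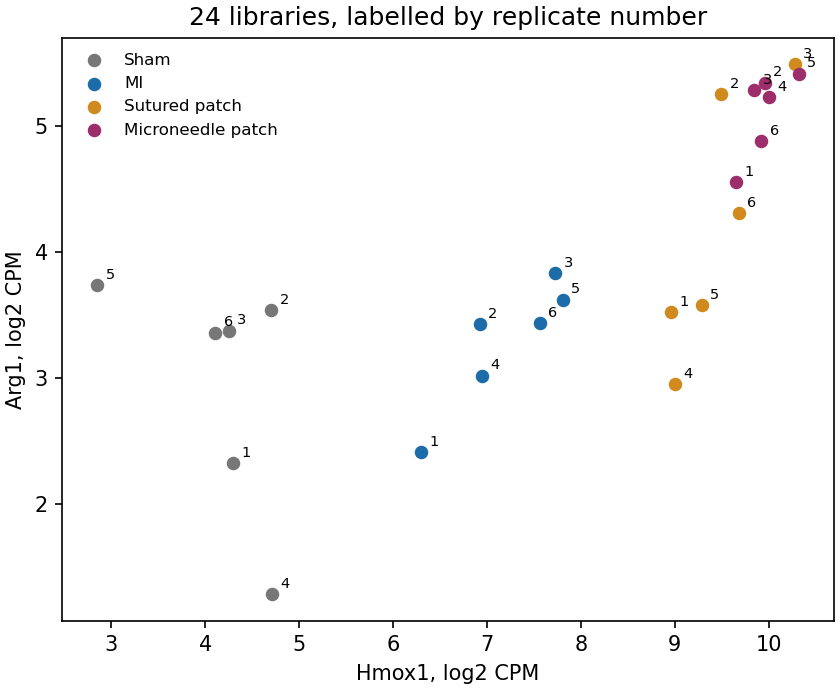
Arg1 against Hmox1 in log2 CPM for the 24 libraries, coloured by group and labelled by replicate number. Within MI and each patch group the points tend to rise together, but only Pearson's r in MI passed the adjustment among these groups. Sham replicates 4 and 5 lie at opposite ends of the Sham points.

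Among all genes that passed the filter, few followed Arg1 and Hmox1 as closely as the pair followed each other inside the groups. By r after subtraction of group means, Hmox1 ranked 36th among the 14539 other genes in likeness to Arg1, and Arg1 ranked 11th in likeness to Hmox1. Without that subtraction the pair had an r of 0.845. Hmox1 then ranked 115th in likeness to Arg1, and Arg1 ranked 168th in likeness to Hmox1. These ranks are descriptions of 18 libraries that share tissue and preparation. With group differences left in, the gene most like Arg1 over the 18 libraries was ENSRNOG00000037076 (r = 0.954), with mean levels of 0.491 ± 0.514 CPM in Sham, 3.64 ± 1.20 CPM in MI, 8.49 ± 4.06 CPM in the sutured group and 11.6 ± 3.27 CPM in the microneedle group (SD, n = 6 each). Its Sham mean lay near the floor of 3 counts (0.255 to 0.551 CPM in Sham libraries), and its lowest Sham level was 0 CPM. The gene most like Hmox1 was ENSRNOG00000016064 (r = 0.967), with mean levels of 181 ± 44.6 CPM in Sham, 228 ± 36.9 CPM in MI, 405 ± 85.9 CPM in the sutured group and 449 ± 29.6 CPM in the microneedle group. Inside the groups, r was 0.922 between ENSRNOG00000037076 and Arg1 and 0.832 between ENSRNOG00000016064 and Hmox1. With group differences left in, an r of at least 0.9 was reached by 14 genes for Arg1 and by 46 for Hmox1, and an r of -0.9 or below by 22 and 11 genes. After subtraction of group means, 1 gene for Arg1 and 0 for Hmox1 reached an r of at least 0.9.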

How the data were processed

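The authors deposited raw counts of reads for each Ensembl gene ID and library. HISAT2, featureCounts and the build rn6 are named in the submitters' processing notes. As no version, annotation release, strand setting or treatment of multi-mapped reads is stated there, reads of overlapping or antisense genes cannot be told apart. Columns were matched to samples by the code in each title. The filter was filterByExpr (edgeR 4.0.16, R 4.3.3, minimum count 10), counts were scaled by TMM, and 1 fit of 4 group means over 24 libraries (20 residual degrees of freedom) gave robust quasi-likelihood F tests, adjusted by Benjamini-Hochberg over 14540 genes and tested on simulated data. SE is the size of the log2 fold change over the root of F. For ratios, 0.5 was added to each count; permutation tests were two-sided (scipy 1.17.1). Alternatives included DESeq2 1.42.0 and limma 3.58.1. The rule for named genes took each gene of the chosen set and the single ID most like it. The members, lists and tests were chosen with earlier results of these data known. No planned gene list, motif search or ratio with Nos2 was run, because no table used here pairs the IDs with symbols, and Nos2 and promoter sequences of these genes were not analysed here.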

Additional observations from a re-analysis of the deposited data

How the results depend on the processing

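The 12 comparisons of single genes kept their direction under all alternatives, and their side of the threshold in 288 of 288 fits without 1 library and in 105 of 108 other fits. The exceptions were all Arg1: for the sutured patch against Sham, limma-voom with quality weights gave 0.63 (adjusted p = 0.218). For the sutured patch against MI, leaving out Sham replicates 4 and 5 gave 1.13 (adjusted p = 0.0431), and adjusted p ranged from 0.0431 to 0.177 over the 9 alternatives. For the microneedle against the sutured patch, limma-voom gave 1.21 (adjusted p = 0.0234). For the ratio, 5 of the 6 comparisons had groups that did not overlap, so leaving out a library could not end their calls and says nothing about stability. Between the patches, the ratio difference ran from 0.28 to 0.65 without 1 library.

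The number of genes called, the background for both genes, moved more. For the sutured patch against MI (661) it was 1143 with DESeq2, 2141 with the 2 groups alone, 3148 with limma-voom and 1715 without Sham replicates 4 and 5, and 308 to 1408 without 1 library. For the microneedle patch against MI (2112) it was 4593 with the 2 groups alone, 5097 with limma-voom, 3804 without Sham replicates 4 and 5, and 1036 to 3482 without 1 library. Between the patches (46) it was 28 with no filter, 21 with thinned counts, 159 with the replicate block, 431 with DESeq2, 802 with limma-voom and 499 without Sham replicates 4 and 5, and 0 to 302 in the edgeR fits without 1 library. The causes were not tested.

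Whether replicate numbers pair the libraries was not tested. The correlation of same-numbered deviations from group means was over 0.1 in 2 to 5 of 6 pairs per comparison. Of the 6 libraries of the first-named group, 0 to 3 correlated best with their own number. With the replicate block in edgeR, Arg1 had a log2 fold change of 0.99 for the sutured patch against MI (adjusted p = 0.0544). For the microneedle patch against MI it was 1.88 (adjusted p = 0.000423), and no call of Arg1 or Hmox1 changed. For the ratio, the block was a sign-flip test of differences between same-numbered libraries. In the 5 comparisons without overlap all differences had the same sign, so its outcome was fixed (adjusted p = 0.0375 each) and says nothing about stability. Between the patches the ratio stayed uncalled (sign-flip adjusted p = 0.156).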
